A study of Homo sapiens with 36 samples.

Results

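The 7 genes described here are CD44, CD24, EPCAM, PROCR and ALDH1A3, which are read as surface or enzyme markers of stem-like states of breast epithelial cells, and HAS2 and HAS3, which make the CD44 ligand hyaluronan. They were picked by name from the 60725 Ensembl genes measured in every library, with their RNA levels in these same libraries already known. Their levels, fold changes and calls are therefore given as a description, and support nothing about the choice itself.

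CD44 is a transmembrane receptor that binds hyaluronan, a long sugar polymer of the matrix around cells, and links it through ezrin-type proteins to the actin skeleton. CD24 is a small, heavily glycosylated protein held in the membrane by a lipid anchor, and breast cancer cells with high CD44 and low CD24 at the surface have long been used as a stem-like population. EPCAM is an adhesion molecule of epithelial cells, PROCR is the receptor for protein C and marks a stem-like population of the mouse mammary gland, and ALDH1A3 oxidises retinaldehyde to retinoic acid and gives much of the aldehyde dehydrogenase activity by which such cells are sorted. HAS2 and HAS3 are synthases in the plasma membrane that polymerise hyaluronan and push it out of the cell.

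RNA-seq was carried out in 36 libraries, in 18 groups of 2. The 10 ER-Src groups are MCF-10A cells, a non-transformed human breast epithelial line with basal features, and all of them, controls included, carry v-Src fused to the ligand-binding domain of the estrogen receptor. They were given ethanol (ETH) or tamoxifen (TAM), which activates the fusion protein, and a control siRNA (Ctrli) or a pool of siRNAs against YAP, TAZ, STAT3 or JUNB (YAPi, TAZi, STAT3i, JUNBi). The 8 other groups are MDA-MB-231, a transformed triple-negative breast cancer line, in 2 sets: set 1 with Ctrli, YAPi, TAZi, both siRNAs together (YAPi_TAZi) and TEADi, and set 2 with Ctrli, JUNBi and STAT3i. Each background is a single cell line. Nothing in the labels says that replicates came from separate cultures, so p-values measure only the spread between these libraries, which may be technical, and the protocol text of every sample names tamoxifen and the Src inhibitor AZD0530, with no time given for each library. In bulk RNA, fewer cells of a kind and less RNA per cell cannot be told apart.

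Depth ran from 6419720 to 19161700 summed expected counts in ER-Src, from 1411304 to 2784605 in the 8 set 1 knockdown libraries, 13456784 and 13534560 in the set 1 controls, and from 7290499 to 18076158 in set 2. Each siRNA left its target at 2.48% to 49.9% of the control mean, and no range of a target overlapped that of its control (TEADi was read from TEAD1). In ER-Src, all 10 basal epithelial marker genes had a mean of at least 1 TPM (a level per transcript length, scaled so that every library has the same total), summing to between 2377 and 4833 TPM in ETH and between 3285 and 4328 in TAM. In MDA-MB-231 the basal list stood at 3 of 10 in the set 1 controls and in set 2, and at 6 of 10 in the set 1 knockdowns. The mesenchymal list stood at 9 of 10 in ER-Src and set 1 and at 8 of 10 in set 2, with TWIST1 below 0.1 TPM in MDA-MB-231. Of the lists for other cells, fibroblast markers summed to 35.9 to 268.6 TPM in ER-Src, and endothelial ones to at most 7.43 TPM anywhere. The leukocyte list of 8 genes, of which 2 or 3 had a mean of at least 1 TPM, summed to 6.94 to 28.9 TPM in ER-Src, 155.1 to 159.3 TPM in the set 1 controls, 27.3 to 79.2 TPM in the set 1 knockdowns and 46.3 to 107.1 TPM in set 2, while PTPRC, CD3E and NKG7, which mark such cells, had means below 0.1 TPM in all sample sets. Whether such cells bear on any value here was not tested.

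Some libraries appear to have been made differently. This is read from their counts, since the labels do not state it and the study's methods name a single kit for RNA-seq. Reads of 6 RNAs that lack a poly(A) tail made up 8.71% to 11.8% of the counts in the set 1 knockdowns and in ER-Src. The share was 0.0028% to 0.0041% for the set 1 controls and 0.0036% to 0.0112% for set 2. Library type here means only whether this share was high or low. Within set 1, then, siRNA and library type cannot be told apart whenever a knockdown is set against its control. The gap between transcript length and effective length, which follows read or fragment length, was 48.0 bases in replicate 1 and 74.6 in replicate 2 of every set 1 knockdown. It was 49.0 bases in ER-Src STAT3i and JUNBi libraries against 49.5 in the rest of ER-Src. Where STAT3i or JUNBi is set against Ctrli in ER-Src, the siRNA and what goes with this gap cannot be told apart.

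RefSeq promoters matched 5 of the 7 genes, with 3 starts for CD24 and 1 each for CD44, PROCR, ALDH1A3 and HAS3. Because CD24 moved most and its mean transcript length moved too, the DNA before its outermost start, outside the gene, and before an internal start, inside an intron, is shown (RefSeq, GRCh38.p14, minus strand, 5′ to 3′). Capitals mark GGAATG, the core that TEAD proteins bind.
CD24 outermost start, chr6:106975628-106975877: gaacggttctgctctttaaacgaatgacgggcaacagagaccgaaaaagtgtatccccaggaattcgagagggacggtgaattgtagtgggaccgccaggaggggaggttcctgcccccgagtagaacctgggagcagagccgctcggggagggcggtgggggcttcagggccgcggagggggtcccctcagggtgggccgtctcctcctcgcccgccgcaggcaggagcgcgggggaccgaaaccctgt
CD24 internal start, chr6:106974040-106974289: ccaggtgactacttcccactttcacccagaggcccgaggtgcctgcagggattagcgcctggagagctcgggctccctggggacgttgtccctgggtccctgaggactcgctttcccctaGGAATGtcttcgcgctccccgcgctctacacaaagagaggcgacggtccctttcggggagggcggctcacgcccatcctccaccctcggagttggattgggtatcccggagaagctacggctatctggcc
The capitals begin 130 bases before the internal start. Read on both strands in the 250 bases before each start, GGAATG was found in 11.9% of 35116 RefSeq promoters and in 1 of the 7 promoters of these genes, the one above. TGANTCA, the AP-1 motif, was in 6.57% of all promoters and TTCNNNGAA, the STAT motif, in 6.57%, and neither was in any of the 7. These matches are letters in a window and no measure of binding.

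On the GENCODE v44 annotation of GRCh38, the genes lie at chr11:35138882-35232402 (CD44, plus strand), chr6:106969831-106975627 (CD24, minus), chr2:47345158-47387601 (EPCAM, plus), chr20:35172072-35216240 (PROCR, plus), chr15:100877714-100916626 (ALDH1A3, plus), chr8:121612116-121641440 (HAS2, minus) and chr16:69105653-69118719 (HAS3, plus).

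The first comparison asks how the genes stood in cells with v-Src switched on, against the same cells in ethanol. CD44, PROCR and HAS2 were higher in TAM Ctrli, CD24 and ALDH1A3 were lower, and EPCAM and HAS3 did not pass the test. Calls throughout are DESeq2 Wald tests at an adjusted p below 0.01 over all genes, and 5 of the 7 genes were called against 5.69% of all genes tested. A log2 fold change is the fitted difference of counts between groups, given ± its standard error.

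CD44 measured 65.6 and 63.1 TPM in ETH Ctrli and 115.2 and 107.6 TPM in TAM Ctrli. The groups did not overlap, and the log2 fold change was 0.94 ± 0.11 (DESeq2 adjusted p = 7.03e-17). CD24, its partner in the stem-like phenotype, measured 34.7 and 25.8 TPM in ETH and 12.1 and 10.8 TPM in TAM, a log2 fold change of −1.15 ± 0.17 (DESeq2 adjusted p = 1.52e-09). Both TAM libraries lay under both ETH libraries. The ratio of CD44 to CD24 TPM within a library was 1.89 and 2.44 in ETH and 9.55 and 10.0 in TAM.

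ALDH1A3 measured 22.7 and 17.5 TPM in ETH and 7.80 and 7.49 TPM in TAM, and fell by 1.30 on the log2 scale (SE 0.18, DESeq2 adjusted p = 1.07e-10). PROCR, at 22.9 and 20.3 TPM in ETH and 28.1 and 26.0 TPM in TAM, rose by 0.64 ± 0.16 (DESeq2 adjusted p = 0.00106). The PROCR groups are close and the call was lost when any 1 of the 4 libraries was left out (DESeq2 adjusted p from 0.0759 to 0.216). EPCAM, at 21.3 and 17.1 TPM in ETH and 10.9 and 10.7 TPM in TAM, did not overlap either, yet its count difference was −0.40 ± 0.19 and was not called (DESeq2 adjusted p = 0.261).

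The hyaluronan synthases were the lowest of the 7. HAS2 measured 0.29 and 0.27 TPM in ETH and 0.94 and 1.16 TPM in TAM, a log2 fold change of 2.12 ± 0.45 (DESeq2 adjusted p = 8.47e-05). Every choice of 3 of the 4 libraries kept the difference between 1.91 and 2.3 but lost the call, with adjusted p from 0.0266 to 0.107. HAS3 had a difference of 0.54 ± 0.49 (DESeq2 adjusted p = 0.792), so that the ratio of HAS3 to HAS2 TPM was 3.17 and 2.63 in ETH and 0.872 and 0.784 in TAM. HAS3 lay between 0.15 and 0.96 TPM in all 20 ER-Src libraries, with a median of 0.62.

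**Figure D1:**
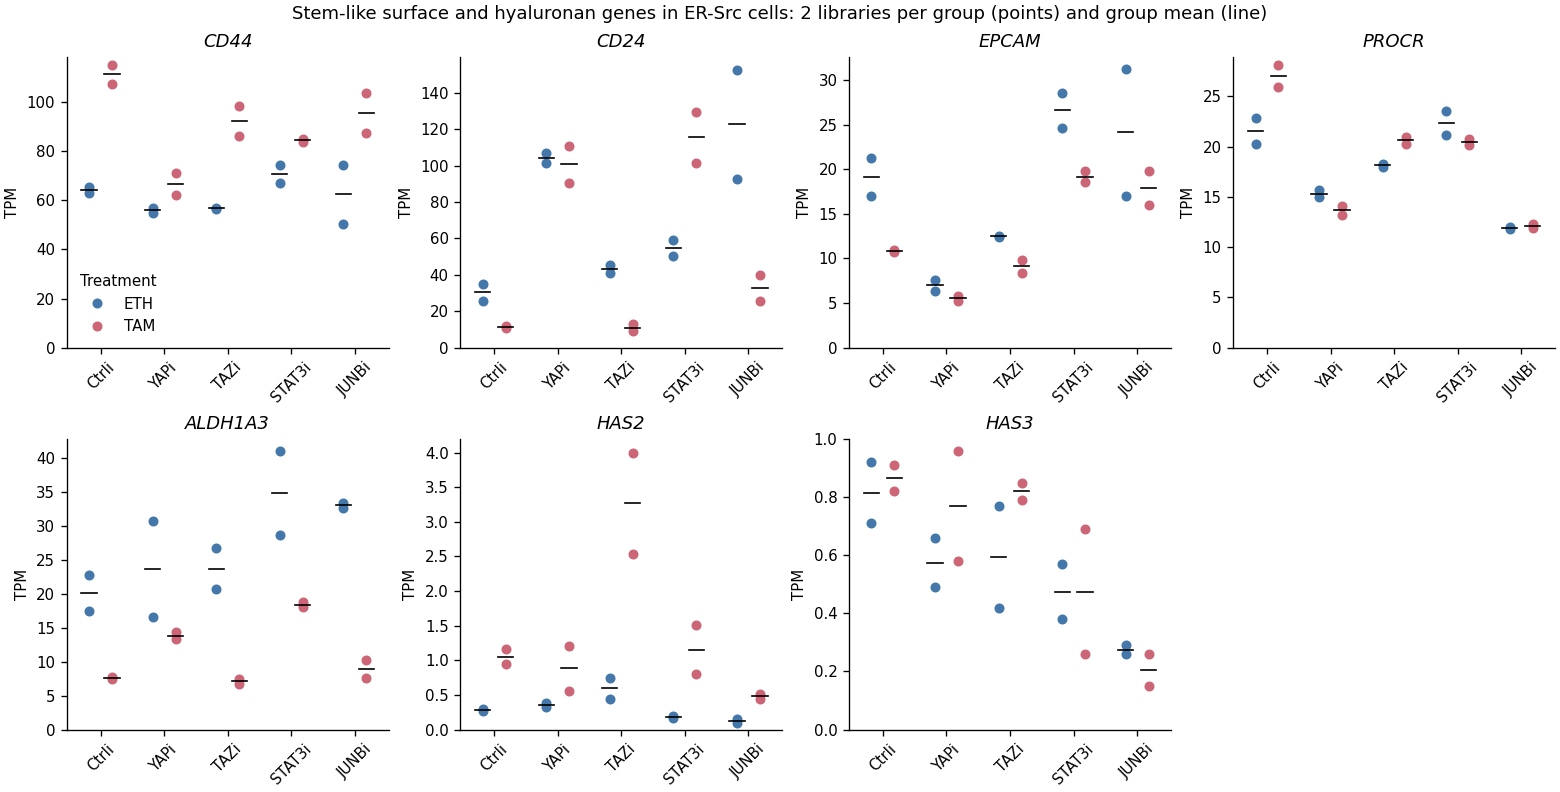
TPM of each of the 7 genes (vertical axes, linear, from 0) in the 20 ER-Src libraries by siRNA, with points for libraries in ETH (blue) and TAM (red) and lines for means of 2. CD24 in TAM lies between 90.3 and 129.7 TPM with YAPi or STAT3i and between 8.99 and 12.9 TPM with Ctrli or TAZi.

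The next comparison asks how each gene stood in TAM once 1 factor was depleted. With YAPi and STAT3i 5 and 4 of the 7 genes were called, with JUNBi 2 and with TAZi 1. In that order the shares of all genes tested were 10.4%, 8.22%, 6.90% and 2.78%. These 4 comparisons share the 2 TAM Ctrli libraries, so their values stand side by side and are not independent of each other.

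CD24 had the largest changes of the 7. Against 12.1 and 10.8 TPM in TAM Ctrli it reached 110.9 and 90.3 TPM with YAPi and 129.7 and 101.3 TPM with STAT3i. It stood at 39.7 and 25.8 TPM with JUNBi and at 8.99 and 12.9 TPM with TAZi. The libraries of YAPi, STAT3i and JUNBi thus all lay above both controls, and those of TAZi overlapped them. The log2 fold change was 3.67 ± 0.13 with YAPi (DESeq2 adjusted p = 7.82e-179), 3.06 ± 0.16 with STAT3i (DESeq2 adjusted p = 5.88e-80), 1.56 ± 0.18 with JUNBi (DESeq2 adjusted p = 2.01e-15) and 0.12 ± 0.22 with TAZi (DESeq2 adjusted p = 0.951). These 3 calls held in every alternative run on them.

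CD44 moved the other way and by less. From 115.2 and 107.6 TPM in TAM Ctrli it was 71.1 and 62.0 TPM with YAPi, 84.0 and 85.1 TPM with STAT3i, 98.3 and 86.1 TPM with TAZi, and 103.7 and 87.7 TPM with JUNBi. All 8 knockdown libraries lay below both controls. It fell by 0.72 with STAT3i (log2, SE 0.12, DESeq2 adjusted p = 9.13e-08) and by 0.50 with YAPi (SE 0.11, DESeq2 adjusted p = 0.000228). The STAT3i call was lost without TAM Ctrli replicate 1 (adjusted p = 0.0166). The YAPi call was lost without any 1 of the 4 libraries (log2 −0.57 to −0.40, adjusted p from 0.0118 to 0.209) and in edgeR (adjusted p = 0.0145). With JUNBi the difference was −0.37 (DESeq2 adjusted p = 0.0167) and with TAZi −0.21 (DESeq2 adjusted p = 0.386).

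The ratio of CD44 to CD24 brings these together. In TAM it was 0.641 and 0.687 with YAPi, 0.648 and 0.840 with STAT3i, 2.61 and 3.40 with JUNBi, and 10.9 and 6.66 with TAZi. In ETH it was 0.534 and 0.543 with YAPi, 0.488 and 0.545 with JUNBi, 1.26 and 1.33 with STAT3i, and 1.39 and 1.24 with TAZi. CD24 exceeded CD44 in 8 of the 20 ER-Src libraries, which are those with YAPi in either treatment, STAT3i in TAM and JUNBi in ETH. Leaving aside the controls, only TAZi in TAM had a ratio in the range of TAM Ctrli or beyond it, in 1 of its 2 libraries.

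**Figure D2:**
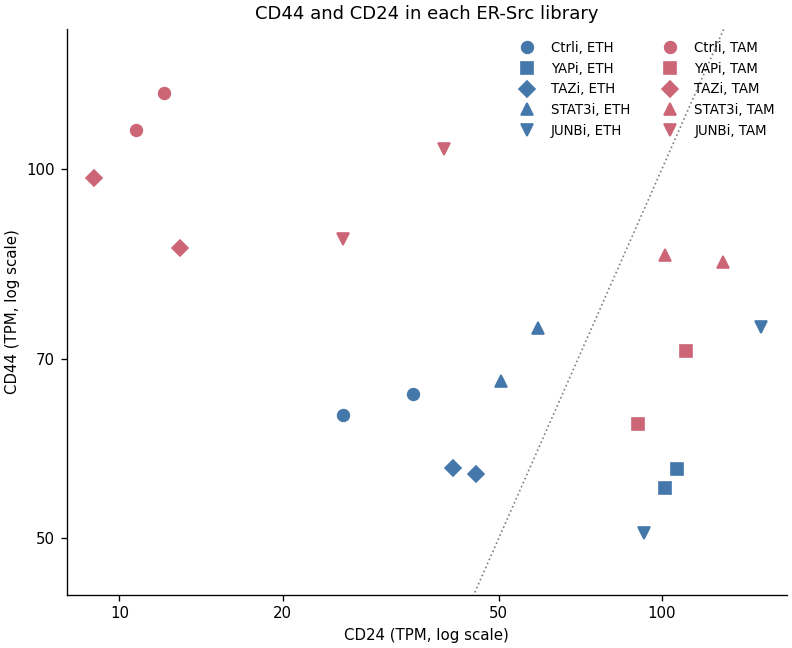
CD44 against CD24 (TPM, both on log scales) in each of the 20 ER-Src libraries, with shapes for siRNAs, blue for ETH, red for TAM and a dotted line where the levels are equal. The TAM Ctrli points have ratios of CD44 to CD24 of 9.55 and 10.0, and the TAM STAT3i points, at 0.648 and 0.840, lie to the right of the line.

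PROCR, the protein C receptor, fell in 3 of the knockdowns. From 28.1 and 26.0 TPM it was 12.3 and 11.9 TPM with JUNBi, 14.1 and 13.2 TPM with YAPi, 20.1 and 20.7 TPM with STAT3i, and 20.3 and 21.0 TPM with TAZi, all below the controls. The change was −1.30 ± 0.17 with JUNBi (DESeq2 adjusted p = 1.27e-11), −0.94 ± 0.16 with YAPi (DESeq2 adjusted p = 2.73e-07) and −0.72 ± 0.16 with STAT3i (DESeq2 adjusted p = 0.000213), and with TAZi it was −0.50 ± 0.15 (DESeq2 adjusted p = 0.0222). The JUNBi call stood in every alternative, the YAPi call was lost without TAM Ctrli replicate 1 (adjusted p = 0.0181), and the STAT3i call was lost without any 1 of its 4 libraries (adjusted p from 0.0467 to 0.115).

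ALDH1A3, low in TAM Ctrli at 7.80 and 7.49 TPM, was 13.3 and 14.3 TPM with YAPi and 18.1 and 18.7 TPM with STAT3i. It rose by 1.23 ± 0.23 (DESeq2 adjusted p = 2.94e-06) and by 1.24 ± 0.19 (DESeq2 adjusted p = 1.98e-09). The YAPi call was lost without TAM YAPi replicate 2 (log2 0.89, adjusted p = 0.0856). With JUNBi it was 10.3 and 7.61 TPM and with TAZi 7.45 and 6.70 TPM, and neither difference was called.

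EPCAM was called only with YAPi, at 5.79 and 5.24 TPM against 10.9 and 10.7 TPM, a change of −1.07 ± 0.23 (DESeq2 adjusted p = 5.87e-05). Leaving out any 1 library kept it between −1.14 and −0.98 and lost the call (adjusted p from 0.0310 to 0.0822). CD24 and EPCAM are both surface proteins of epithelial cells, and with YAPi the first rose and the second fell.

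HAS2 was called only with TAZi, where it measured 4.00 and 2.54 TPM against 0.94 and 1.16 TPM in TAM Ctrli. Its log2 fold change was 1.5 ± 0.31 (DESeq2 adjusted p = 8.62e-05). Without TAM TAZi replicate 1, the highest library of all 20, it was 1.09 (adjusted p = 0.327), and the call was also lost in edgeR (adjusted p = 0.0231) and in a fit over all groups (adjusted p = 0.0110). With JUNBi HAS2 was 0.52 and 0.44 TPM, a difference of −1.34 (DESeq2 adjusted p = 0.0119), and HAS3 had a difference of −1.74 (DESeq2 adjusted p = 0.0199), neither of them called, though edgeR called both (adjusted p = 0.00361 and 0.00465). The ratio of HAS3 to HAS2 was 0.198 and 0.335 with TAZi in TAM.

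**Figure D3:**
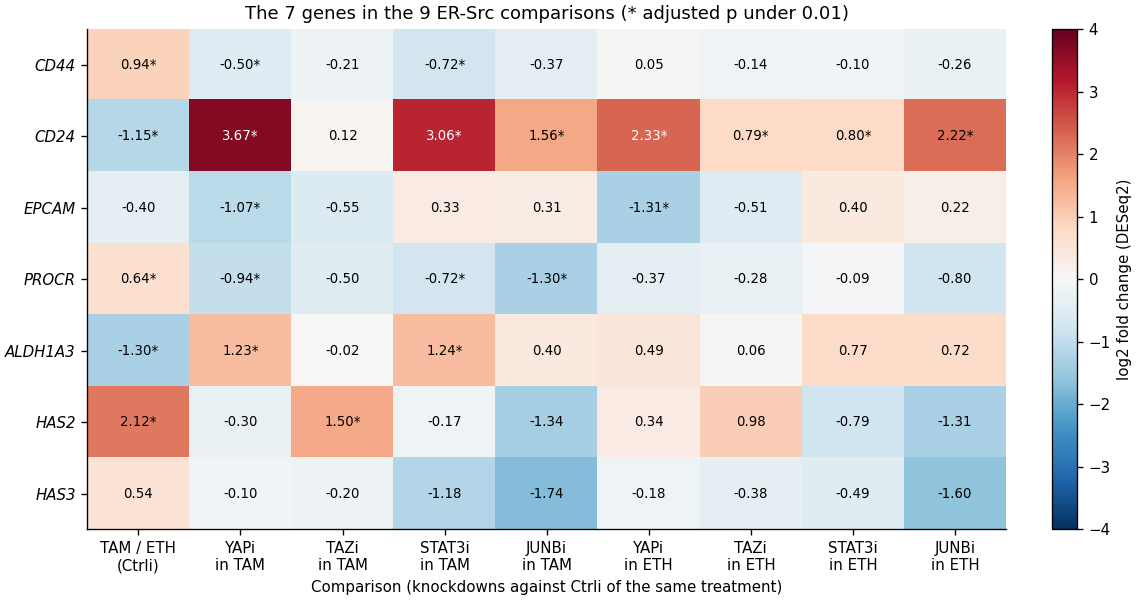
Log2 fold changes of counts (DESeq2; color and printed value) for the 7 genes by comparison, from TAM against ETH to each knockdown in TAM and in ETH, with an asterisk where the adjusted p is under 0.01. CD24 has the largest values, 3.67 with YAPi and 3.06 with STAT3i in TAM.

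In ethanol, with v-Src not switched on, fewer of these genes were called in the knockdowns. A call depends on the spread between replicates as well as on the change. Replicates of ETH STAT3i and ETH JUNBi differed most, with chi-square per degree of freedom of 37.9 and 45.8. The same siRNAs in TAM had 14.6 and 17.6. With YAPi the value was 10.61 in ETH and 10.96 in TAM, and with TAZi it was 7.86 and 8.87. The part of this spread in the number of calls was not tested. CD24 rose in all 4 knockdowns in ETH, EPCAM fell with YAPi, and nothing else was called. Calls were 2 of the 7 genes with YAPi against 11.6% of all genes tested, and 1 with TAZi against 4.94%. STAT3i and JUNBi had 1 each, against 0.173% and 2.80%. The 4 comparisons share the 2 ETH Ctrli libraries.

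CD24 stood at 34.7 and 25.8 TPM in ETH Ctrli. It was 106.8 and 101.2 TPM with YAPi, 152.4 and 92.7 TPM with JUNBi, 59.1 and 50.5 TPM with STAT3i, and 41.1 and 45.4 TPM with TAZi. No knockdown library overlapped the controls. The log2 fold change was 2.33 with YAPi (DESeq2 adjusted p = 1.71e-74), 2.22 with JUNBi (DESeq2 adjusted p = 2.98e-18, but 0.0241 in edgeR), 0.80 with STAT3i (DESeq2 adjusted p = 0.00786) and 0.79 with TAZi (DESeq2 adjusted p = 4.54e-06). The STAT3i call was lost in edgeR (adjusted p = 0.403), with TMM scaling or in a fit over all groups (adjusted p = 0.0105 in both), with effective length offsets (adjusted p = 0.152) and without either control library (log2 0.71 and 0.91, adjusted p = 1 in both). The TAZi call was lost without ETH Ctrli replicate 2 (0.69, adjusted p = 0.0520) or ETH TAZi replicate 2 (0.67, adjusted p = 0.0336).

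EPCAM was 6.39 and 7.54 TPM with YAPi in ETH against 21.3 and 17.1 TPM in the control, and fell by 1.31 (log2, SE 0.20, DESeq2 adjusted p = 4.37e-09). CD44 lay between 50.5 and 74.3 TPM in all 10 ETH libraries, a range that TAM Ctrli lies above. PROCR with JUNBi was 11.8 and 11.97 TPM against 22.9 and 20.3 TPM, without overlap, and its difference of −0.80 was not called (DESeq2 adjusted p = 0.0544). ALDH1A3 was 28.7 and 41.0 TPM with STAT3i and 32.6 and 33.4 TPM with JUNBi, above both controls, with differences of 0.77 (DESeq2 adjusted p = 0.0552) and 0.72 (DESeq2 adjusted p = 0.0428).

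The difference of each knockdown's effect between treatments was tested as an interaction, the log2 change in TAM minus that in ETH. CD24 passed with STAT3i, at 2.24 ± 0.23 (DESeq2 adjusted p = 7.68e-19), and with YAPi, at 1.32 ± 0.17 (DESeq2 adjusted p = 6.56e-12). With JUNBi it was −0.69 (DESeq2 adjusted p = 0.559) and with TAZi −0.69 (DESeq2 adjusted p = 0.0918). CD44 had interactions of −0.57 with YAPi (DESeq2 adjusted p = 0.0184) and −0.64 with STAT3i (DESeq2 adjusted p = 0.0589), not past the threshold, though the first passed with effective length offsets (−0.65, adjusted p = 0.00759). The other genes were not called in any of the 4, where 1.34% of all genes were called with STAT3i, 0.498% with YAPi, 0.288% with JUNBi and 1.60% with TAZi. With TAZi, EPCAM, HAS2 and HAS3 were left without an adjusted p and could not be called. The STAT3i libraries in both treatments shared the 49.0 base gap noted above.

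The level orders over the 10 ER-Src groups differ from gene to gene. CD44 ran from TAM Ctrli through TAM JUNBi, TAM TAZi, TAM STAT3i, ETH STAT3i, TAM YAPi, ETH Ctrli, ETH JUNBi and ETH TAZi down to ETH YAPi, and 6 of its 9 neighbouring pairs overlapped. CD24 ran from ETH JUNBi through TAM STAT3i, ETH YAPi, TAM YAPi, ETH STAT3i, ETH TAZi, TAM JUNBi, ETH Ctrli and TAM Ctrli to TAM TAZi, with 5 pairs overlapping. Neighbouring groups stood apart in 5 of 9 pairs for EPCAM, PROCR and HAS2, in 4 for ALDH1A3 and in none for HAS3. EPCAM was highest in ETH STAT3i and lowest in TAM YAPi, PROCR highest in TAM Ctrli and lowest in ETH JUNBi, and ALDH1A3 highest in ETH STAT3i and lowest in TAM TAZi.

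Over the 10 ER-Src group means of log2(TPM + 1), CD44 correlated with CD24 at r = −0.653 and with ALDH1A3 at −0.797, and CD24 with ALDH1A3 at 0.716. Among 10079 genes with a mean expected count of at least 100, those most like CD44 were WDR91 (r = 0.961), PPP1R3B (0.954) and TGM2 (0.951), and those most like CD24 were DAPP1 (0.946), HCFC2 (0.943) and SUMF1 (0.940). For EPCAM they were DESI2 (0.983), RDH14 (0.982) and CEP192 (0.979), for PROCR MAD2L2 (0.953), TEAD2 (0.936) and EIF3CL (0.930), and for ALDH1A3 CAMKK2 (0.960), MRPL34 (0.957) and ESYT1 (0.956). The 10 points share libraries of one cell line, and r is given as a description. HAS2 and HAS3 fell below the count limit, with means of 99.0 and 47.3.

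The mean length of a gene's transcripts, weighted by how much of each isoform is estimated, is a readout that the choice of genes did not use. It was tested with limma over 9294 genes. The share called was 0.258% in TAM against ETH, 0.0215% with YAPi, and 0% with TAZi, STAT3i and JUNBi in TAM, and 14.2%, 4.86%, 0.0108% and 6.23% with YAPi, TAZi, STAT3i and JUNBi in ETH.

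CD24 was called once, with YAPi in ETH. Its mean transcript length was 1245 and 1239 bases in ETH Ctrli and 1781 and 1851 bases in ETH YAPi, a log2 change of 0.55 ± 0.11 (limma adjusted p = 0.00496) where the median of all genes was 0.20. The call was lost without any 1 of those 4 libraries (adjusted p from 0.0248 to 0.0348). In TAM the lengths were 1217 and 1376 bases with Ctrli and 1765 and 1975 bases with YAPi, a change of 0.53 ± 0.11 that was not called (limma adjusted p = 0.0543, median of all genes 0.07). The CD24 length also changed in ETH by 0.41 with JUNBi (limma adjusted p = 0.0227) and by 0.38 with TAZi (limma adjusted p = 0.0312). The medians of all genes there were both 0.16. In TAM it changed by 0.26 with JUNBi (limma adjusted p = 0.435) and by 0.30 with TAZi (limma adjusted p = 0.378). None of these was called. STAT3i changed it by 0.12 in ETH (limma adjusted p = 0.616). With STAT3i in TAM the CD24 length changed by 0.02 (limma adjusted p = 0.973). CD24 counts there rose by 3.06 on the log2 scale against 3.67 with YAPi. By mean TPM, STAT3i stood higher, at 115.5 against 100.6 with YAPi, and their libraries overlapped. No other gene of the 5 tested was called, and the nearest were PROCR with JUNBi in ETH, at 0.25 (limma adjusted p = 0.0265, median of all genes 0.16), and CD44 with YAPi in ETH, at 0.27 (limma adjusted p = 0.0268).

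**Figure D4:**
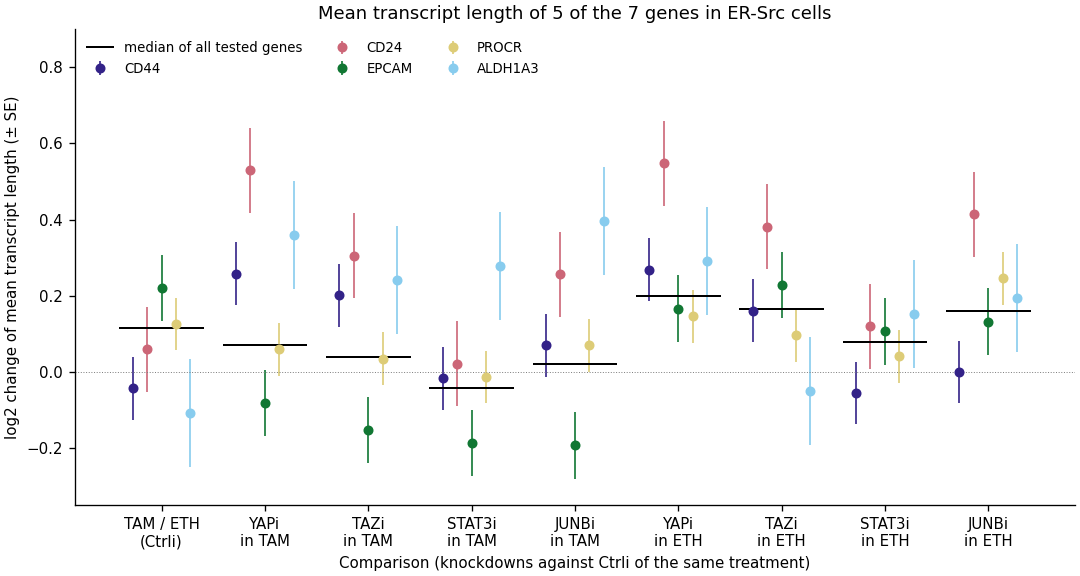
Log2 change of mean transcript length (points, with bars of 1 SE) for the 5 genes tested in each ER-Src comparison, beside the median of all 9294 genes (black lines). CD24 with YAPi stands at 0.55 in ETH and 0.53 in TAM, above medians of 0.20 and 0.07.

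Reads from a gene and a partner on the other strand cannot be told apart where strand was not used in counting, and the strand setting is not given in the sources used here. HAS2-AS1 and CD44-AS1 stayed at or below 0.25 and 0.71 TPM in ER-Src, and ALDH1A3-AS1 between 0.3 and 1.7 TPM. In MDA-MB-231 these partners reached 2.78, 5.03 and 2.73 TPM, in that order. HAS2 itself lay between 0.1 and 4.0 TPM in ER-Src and between 0.25 and 5.79 TPM in MDA-MB-231. ALDH1A3 lay between 0.44 and 3.6 TPM in MDA-MB-231 set 2. What such reads add to the values of HAS2 and ALDH1A3 was not tested. CD24 has near-identical copies elsewhere in the genome, and the only one above 0, CD24P4, reached 1.44 TPM at most.

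The other genes of each pathway were taken from lists that were also drawn up with earlier results known, and are given as counts beside the median of all genes tested. In TAM against ETH that median was −0.01, and in the knockdowns in TAM it lay between 0.00 and 0.03.

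Among genes that make, cut or bind hyaluronan, 3 of 11 tested rose and 0 fell in TAM, with a list median of 0.73. CEMIP2, a membrane protein tied to hyaluronan breakdown, rose by 2.93 (log2, DESeq2 adjusted p = 7.84e-136), the proteoglycan VCAN by 1.45 and UGP2, which makes a sugar precursor, by 0.73. With STAT3i in TAM 2 of 10 fell, CEMIP2 (−1.98) and VCAN (−0.90), and the median was −0.21. With YAPi 2 rose and 2 fell (median 0.07), UGP2 by 0.89, HMMR, a hyaluronan receptor, by −0.72 and CEMIP2 by −0.46. With JUNBi UGP2 fell (−0.99) as the only call of 9, and with TAZi 1 of 11 rose.

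Of the genes that hold, splice or shed CD44, 2 of 12 rose and 1 fell in TAM (median 0.14). MMP14, a membrane protease that can cut CD44, rose by 1.48 (DESeq2 adjusted p = 2.89e-36), and EZR, the ezrin that links CD44 to actin, changed by −0.39. MMP14 fell with JUNBi (−0.90) and STAT3i (−0.46), EZR rose with STAT3i (0.66), and ADAM10, another CD44 protease, fell with YAPi (−0.53). In those knockdowns 0 rose and 1 fell with YAPi (median 0.19), 1 rose and 3 fell with STAT3i (0.02), 1 fell with JUNBi (0.05) and 0 were called with TAZi (−0.11).

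Epithelial surface genes that accompany EPCAM and CD24 rose with YAPi, 5 of 8 with none falling (median 0.75). These included the claudins CLDN4 (5.70, DESeq2 adjusted p = 2.47e-22) and CLDN1 (1.82), which seal cell contacts, and E-cadherin CDH1 (1.58). With STAT3i 3 of 8 rose (median 0.89), among them the adhesion molecule ALCAM (1.2) and CDH1 (0.90). With JUNBi 1 rose, CDH1 (0.88), and 1 fell among 7 tested (median −0.08), and with TAZi none of 8 was called (median −0.15). TAM against ETH gave 1 up and 1 down of 8 (median 0.03), with ALCAM at −0.60.

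Aldehyde dehydrogenases and retinoic acid genes fell with TAM, 4 of 13 with none rising (median −0.43). They were DHRS3, a retinaldehyde reductase (−1.31), and the dehydrogenases ALDH3B1 (−0.97), ALDH3A2 (−0.81) and ALDH3A1 (−0.81). YAPi in TAM gave 4 up and 1 down of 13 (median 0.31): the retinoic acid carrier CRABP2 (4.33), ALDH3A1 (1.36), the retinol dehydrogenase RDH10 (1.15) and, falling, ALDH7A1 (−1.42). STAT3i gave 2 up and 1 down (median 0.34), with DHRS3 at 1.5, ALDH3A2 at 0.58 and ALDH3A1 at −0.55. With JUNBi ALDH3B1 rose (0.79) as the only call of 11 (median −0.16), and with TAZi 0 of 13 were called (median 0.01).

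Around PROCR, the protein C and thrombin genes gave 3 up and 0 down of 8 in TAM (median 0.84). Thrombomodulin THBD rose by 1.22, the protein C cofactor PROS1 by 0.88 and tissue factor F3 by 0.81. THBD fell with JUNBi (−1.73), STAT3i (−1.47) and TAZi (−1.07), and F3 rose with YAPi (1.38) and JUNBi (0.50), as did PROS1 with JUNBi (0.94). List medians were 0.29 for JUNBi, −0.26 for STAT3i, −0.17 for YAPi and 0.12 for TAZi.

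A last list of other stem-like mammary genes gave 2 up of 13 in TAM (median −0.02), one of them MME, the surface peptidase CD10 (0.65). MME also rose with TAZi (0.95), where the ectoenzyme NT5E fell (−0.88). NT5E fell with JUNBi too (−0.91). With STAT3i 3 of 11 rose (median 0.38), the Wnt pathway receptor LGR4 (0.84), the integrin chain ITGB1 (0.79) and the transcription factor SNAI2 (0.76), and with YAPi ITGB1 rose (0.40) among 2 up and 1 down (median 0.18).

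In MDA-MB-231 set 1, CD44 was the highest of the 7 by TPM. It stood at 438.2 and 450.8 TPM in Ctrli and between 152.2 and 377.6 TPM in the 8 knockdown libraries. TPM put CD44 below the controls and the count fit put it above them. The 6 RNAs without poly(A) tails alone held 164099 to 426133 of the summed TPM of a library in the knockdowns and at most 485 in Ctrli and set 2. With these RNAs left out of the scaling, the mean CD44 level of a knockdown was 342.4 to 470.5 TPM, below the 444.6 TPM of Ctrli with YAPi and TAZi and above it with YAPi_TAZi and TEADi, on SDs of 226.8 to 274.5 TPM (n = 2). The log2 fold change of counts was 0.43 with YAPi, 0.39 with TAZi, 0.40 with YAPi_TAZi and 0.80 with TEADi, each called, and the direction of CD44 here depends on the scale. TMM scaling gave 0.28 to 0.69. Without either control library the CD44 calls with YAPi, TAZi and YAPi_TAZi were lost (0.36 to 0.42, adjusted p from 0.0764 to 0.111). The shares of all genes called were 24.6%, 32.6%, 35.5% and 27.4%, and 3, 4, 4 and 5 of the 7 genes were called.

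CD24 had 302 and 307 counts in the set 1 controls and 0 to 4 counts in each of the 8 knockdown libraries. Together these were 14 counts among 16280350 against 609 among 26991344, a ratio per total count of 0.0381 (exact 95% interval 0.0207 to 0.0644, for counting error only). By group the ratio was 0.0202 with YAPi, 0.0295 with TAZi, 0.0511 with YAPi_TAZi and 0.0565 with TEADi, and their intervals overlapped. The set 2 controls, of the same library type as the set 1 controls, had 31 and 12 counts, or 2.59 and 0.63 TPM against 20.8 and 17.4 TPM. The 2 sets of controls therefore stood apart from each other in CD24. They also did so in PROCR, at 57.7 and 57.0 TPM in set 1 and 18.1 and 18.8 TPM in set 2. HAS2 stood at 5.79 and 5.19 TPM in set 1 and at 1.15 and 0.35 TPM in set 2. ALDH1A3 stood at 4.72 and 6.95 TPM in set 1 and at 1.68 and 0.44 TPM in set 2. EPCAM stood at 13.04 and 17.42 TPM in set 1 and at 6.54 and 4.03 TPM in set 2. In CD44 and HAS3 the control sets overlapped.

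ALDH1A3 was 4.72 and 6.95 TPM in the set 1 controls and between 10.2 and 49.5 TPM in the knockdowns, highest with TEADi at 33.7 and 49.5 TPM. It was called in all 4, with log2 changes of 2.47 with YAPi, 3.05 with TAZi, 3.29 with YAPi_TAZi and 3.84 with TEADi. PROCR, between 5.81 and 18.0 TPM in the knockdowns, was called with TAZi (−1.0), YAPi_TAZi (−0.54) and TEADi (−1.47), and HAS2 with YAPi_TAZi (−1.24) and TEADi (−2.15). Without either control library all the PROCR and HAS2 calls were lost (adjusted p from 0.0493 to 0.546). Among the alternatives run, the PROCR and HAS2 calls with YAPi_TAZi stood only with TMM scaling. The local dispersion trend repeated the main fit there, which had already fallen back to it. HAS2 with YAPi_TAZi was −0.78 without YAPi_TAZi replicate 1 and −2.38 without replicate 2. HAS2 with TEADi was also lost without TEADi replicate 2 (−2.47, adjusted p = 0.0166). EPCAM and HAS3 were not called. The marker lists differed between the set 1 controls and knockdowns as well. The luminal one summed to 1364 to 1383 TPM in the controls and to 149.5 to 370.7 TPM in the knockdowns. The mesenchymal one summed to 3675 to 3736 TPM and to 731.6 to 1868 TPM. In set 2, of the library type of the set 1 controls, the luminal list summed to 1352 to 1862 TPM and the mesenchymal one to 1428 to 2667 TPM. The part of the marker lists in these values was not tested. With the controls of both sets in the fit, 4 of the 16 calls were left, those of ALDH1A3.

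**Figure D5:**
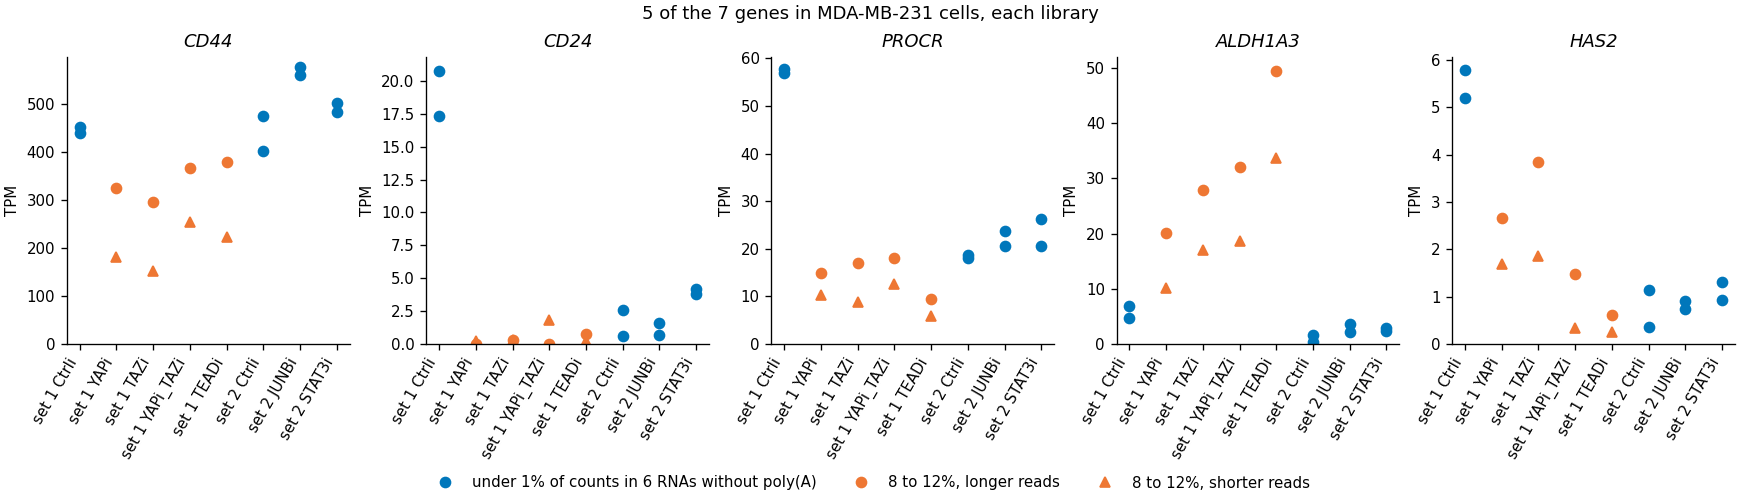
TPM (linear, from 0) of 5 of the genes in the 16 MDA-MB-231 libraries by set and siRNA, each point a library. Color gives the share of counts in RNAs without poly(A) tails. Triangles mark the gap of 48.0 bases between transcript length and effective length, labeled as shorter reads. CD24 lies at 17.4 and 20.8 TPM in the set 1 controls and at most at 4.17 TPM in every other library.

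Each set 1 knockdown was also set against the other 3, which keeps to a single library type. None of the 7 genes was called by DESeq2, or by edgeR, in any of these 4 comparisons, where 0.276%, 0.466%, 1.23% and 2.07% of all genes were called for YAPi, TAZi, YAPi_TAZi and TEADi. In that order DESeq2 left an adjusted p for 3, 5, 5 and 5 of the 7. CD24 and HAS3 had none in any of them and could not be called. Without YAPi_TAZi replicate 1, DESeq2 called 2. Unadjusted p-values below 0.05 were found for 4 of the genes with TEADi, 1 with YAPi and 0 with TAZi or YAPi_TAZi. Replicate number goes with the gap of length to effective length here, and same-numbered libraries deviated together (r from 0.783 to 0.819). With replicate number as a block the shares were 0.619%, 0.320%, 1.13% and 1.87%.

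TEADi stood furthest from the rest. CD44 was 0.40 higher by log2 counts (DESeq2 adjusted p = 0.0120), and with the replicate block it was 0.40 ± 0.09 (DESeq2 adjusted p = 0.00226), which is past the threshold. Within a replicate number it was 0.37 and 0.42 above the mean of the others, and above each of them. ALDH1A3 was 0.87 higher (DESeq2 adjusted p = 0.0552), at 0.85 and 0.88 within a replicate number, and HAS2 2.16 lower (DESeq2 adjusted p = 0.0530), at −2.30 and −2.06. With effective length offsets ALDH1A3 was called (1.10, DESeq2 adjusted p = 0.00278).

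In set 2 none of the 7 genes was called by DESeq2 or edgeR with JUNBi or STAT3i, against 3.41% and 0.497% of all genes. Independent filtering left an adjusted p for 2 and 1 of them. CD44 measured 474.3 and 401.7 TPM in Ctrli, 558.9 and 575.6 TPM with JUNBi and 483.3 and 500.2 TPM with STAT3i. The only unadjusted p below 0.05 was for ALDH1A3 with JUNBi, at 2.27 and 3.60 TPM against 1.68 and 0.44 TPM (log2 1.41, unadjusted p = 0.0342 from DESeq2's Wald test). CD24 lay between 0.63 and 4.17 TPM over the 6 libraries, on 12 to 46 counts, so small differences were not detectable at this depth.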

How the data were processed

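RNA-seq libraries of 36 samples were compared. The authors aligned reads with STAR to hg38 and estimated genes with RSEM on GENCODE v30, per the study's methods and the submitters' notes, and versions are not given in the sources used here. The deposited tables hold expected counts (estimated, not always whole), TPM, and for each gene a transcript length and an effective length in bases, which are used as other measures. The members and the pathway lists were chosen with earlier results of these data known. Expected counts were rounded and tested with DESeq2 1.42.0 in R 4.3.3, in a separate fit for each comparison, at a Benjamini-Hochberg adjusted p below 0.01. In the YAPi_TAZi fit of set 1 the dispersion trend fell back to a local one. Mean transcript length was tested with limma 3.58.1. Alternatives were edgeR 4.0.16, TMM scaling, a mean count of at least 10, effective length offsets, a replicate block, a fit over all groups, both control sets, and leaving out each library. A local dispersion trend was added after seeing the data. The tests were checked on simulated counts. Total depth and the 3 counts allowed by a count of 0 limit precision, and intervals cover counting error only. The genes named beside the members were, from each list, up to 4 called genes with the largest change and a mean normalized count of at least 100, and the 3 genes most like each member. Some genes of the lists enter their counts and medians but are not reported here by name. Gene symbols were matched for 93.1% of identifiers. Replicates differed by more than sampling noise, with chi-square per degree of freedom from 2.13 to 45.8.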

Additional observations from a re-analysis of the deposited data

Results flagged for a closer look

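The change of CD24 with STAT3i differed between TAM and ETH by 2.24 on the log2 scale (SE 0.23, DESeq2 adjusted p = 7.68e-19), and with YAPi by 1.32 (SE 0.17, DESeq2 adjusted p = 6.56e-12). A test of the difference between treatments marked both. CD24 rose by 3.06 with STAT3i in TAM and by 0.80 in ETH, and by 3.67 and 2.33 with YAPi.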

How the results depend on the processing

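Of 40 calls of a gene in a comparison, 16 stood under every alternative count fit run on them, 24 were lost under 1 or more and 0 changed direction. TPM was not among these fits. By TPM, CD44 lay below the controls in the set 1 knockdowns, where its calls were rises. In TAM against ETH the 5 calls became 3 without any 1 library. For the knockdowns in TAM the 12 calls became 6 to 12 without 1 library. In ETH the 5 calls became 3 in edgeR and 3 to 7 without 1 library. The 2 interactions became 2 to 3. In set 1 the 16 calls became 4 with both control sets and 8 to 17 without 1 library. Against the other knockdowns 0 became 1 with effective length offsets, 1 with the replicate block and 0 to 2 without 1 library. In set 2 the count stayed 0. For transcript length 1 call became 3 with the replicate block and 0 to 3 without 1 library. In ER-Src the replicate numbers are not a stated pairing. Same-numbered libraries deviated together with r from −0.052 to 0.409 in comparisons of a pair of groups and from −0.208 to 0.604 in the interactions. With the replicate block the counts were 4 in TAM against ETH, 11 in TAM, 4 in ETH, 3 interactions and 12 in set 1: in ER-Src the calls of PROCR in TAM against ETH (adjusted p = 0.0291), PROCR with STAT3i in TAM (0.0120) and CD24 with STAT3i in ETH (0.0284) went and the CD44 interaction with STAT3i (−0.63, adjusted p = 0.00294) came. In set 1 against Ctrli, where r was −0.059 to 0.007, PROCR with TAZi (0.0296) and YAPi_TAZi (0.0934) and HAS2 with YAPi_TAZi (0.0694) and TEADi (0.0383) went. The 2 lengths that came with the block were CD44 with YAPi (adjusted p = 0.00625) and PROCR with JUNBi (adjusted p = 0.00988), both in ETH. No paired analysis was possible for set 2 because its controls are numbered 3 and 4 and its knockdowns 1 and 2. Depth limits HAS2 and HAS3 in ER-Src and CD24 in MDA-MB-231.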
